A study of Rattus norvegicus with 6 samples.

Results

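The respiratory chain subunits described here were taken from the gene table by name. The 13 mitochondrial-encoded protein-coding genes were ATP6, ATP8, COX1, COX2, COX3, CYTB, ND1, ND2, ND3, ND4, ND4L, ND5 and ND6. A further 86 nuclear protein-coding genes had symbols of the Ndufa, Ndufb, Ndufc, Ndufs, Ndufv, Sdh, Uqcr, Cyc1, Cox4 to Cox8 and Atp5 series. Together they were 99 of the 40154 genes in the table, of which 22764 are labelled protein-coding. The rule uses no measured value, but it was set with earlier results of these data known. By symbol, complex I held 7 mitochondrial and 38 nuclear genes, complex II held 4 nuclear genes, complex III 1 and 9, complex IV 3 and 18, and complex V, the ATP synthase, 2 and 17. Genes were placed in a complex by symbol alone. Ndufa4, whose protein is now assigned to complex IV, was therefore counted with complex I, and Cox7a2l, a factor that joins complexes III and IV, with complex IV. Atp5s, whose gene is now named Dmac2l, and Atp5sl were counted with complex V. Whether these last genes code for subunits of the ATP synthase was not checked. The rows of Cox6b1 and Ndufa13 are labelled pseudogene and that of Ndufb1 long non-coding RNA, so these genes fell outside the rule.

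The cells were atrial fibroblasts from the hearts of Sprague-Dawley rats 1 to 3 days old, from which atrial myocytes had been removed by 1.5 h of preplating. They received a control siRNA (si-NC) or an siRNA against Gpd1l (si-GPD1L), the gene of glycerol-3-phosphate dehydrogenase 1-like protein, and were cultured for 24 h. There were 3 si-NC and 3 si-GPD1L libraries of polyA-selected RNA, and the labels give the same treatment, "Atrial differentiation", to all of them. The paper's methods describe hearts, in the plural, minced and digested with trypsin, and do not say how many made up a library. No label says that the libraries of a group came from separate cultures. The p-values therefore measure only the spread between these libraries, which may be technical.

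The respiratory chain passes electrons from NADH and succinate through complexes I, II, III and IV to oxygen, and the ATP synthase uses the proton gradient made on the way. Complexes I, III, IV and V are assembled from subunits of both genomes, while complex II is wholly nuclear-encoded. The mitochondrial genes are transcribed as long polycistronic RNAs that are cut at the tRNAs, whereas each nuclear subunit has its own promoter.

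Each library held between 16892255 and 20149732 gene counts. Normalized counts below are counts scaled to a common library size with TMM factors, and differences between groups are log2 fold changes of si-GPD1L over si-NC from edgeR's quasi-likelihood test, with standard errors (SE) and p-values adjusted by Benjamini-Hochberg over the 14852 genes tested. A gene is called lower or higher where its adjusted p was under 0.05. Levels are compared between genes only as deposited TPM, which is per length. The targeted gene Gpd1l had normalized counts of 262, 333 and 314 in si-NC replicates 1 to 3 and of 220, 208 and 303 in si-GPD1L replicates 1 to 3. The groups overlapped, because the library labelled si-GPD1L replicate 3 lay above si-NC replicate 1. For Gpd1l the fitted difference was -0.31 on the log2 scale (SE 0.15, adjusted p = 0.234). A two-sided exact permutation test gave p = 0.2, where 3 against 3 cannot go below 0.1. Libraries are therefore named by their labels throughout.

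One control library stood apart before any comparison. All 13 mitochondrial-encoded members had their highest normalized count of the 6 libraries in si-NC replicate 1, as did 65 of the 79 nuclear members tested (82.3%) and 28.8% of all genes tested. The median mitochondrial-encoded member was 0.66 higher on the log2 scale in that library than in the mean of the other 5, and the median nuclear member 0.32 higher. Calls and sums below are therefore mostly given with and without this library. A value given once is from all 6 libraries and may depend on it.

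Summed over the 13 genes, the mitochondrial-encoded members took 3.48, 2.36 and 2.41% of counts in si-NC replicates 1 to 3 and 2.13, 2.08 and 2.07% in si-GPD1L replicates 1 to 3. The si-NC mean was 2.75% ± 0.63 (SD, n = 3) and the si-GPD1L mean 2.09% ± 0.034 (SD, n = 3). The groups did not overlap, and the si-GPD1L libraries lay within a far narrower band than the controls. The ratio of the means was 0.761 with all libraries and 0.877 without si-NC replicate 1. The 86 nuclear members took 0.654, 0.578 and 0.558% of counts in si-NC and 0.535, 0.523 and 0.518% in si-GPD1L. Again every si-GPD1L library lay below every si-NC library. The ratio of the means was 0.881, and 0.925 without si-NC replicate 1. The mitochondrial-encoded members held 5.31, 4.08 and 4.32 counts per nuclear-encoded count in si-NC, and 3.98, 3.97 and 3.99 in si-GPD1L. The ratio of these means was 0.871, and 0.948 without si-NC replicate 1. On the summed TPM scale, which weights short genes more, the ratios were 0.807 for mitochondrial-encoded and 0.909 for nuclear members. Without si-NC replicate 1 they were 0.901 and 0.934.

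**Figure D1:**
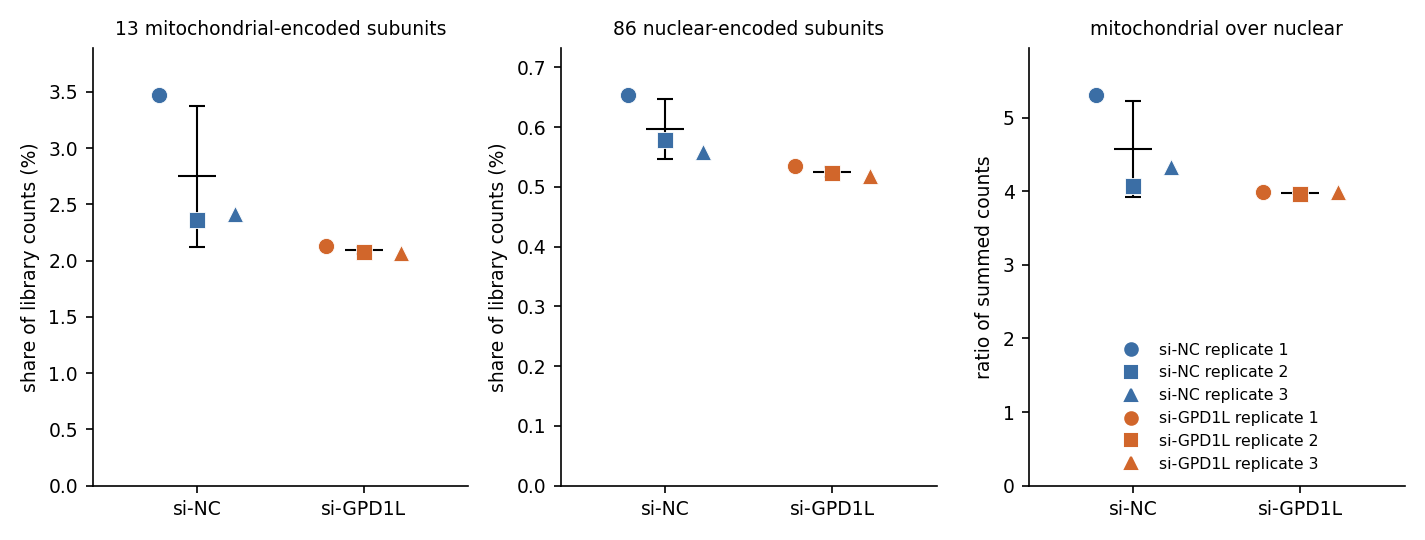
Share of library counts (%, left and middle axes) on the 13 mitochondrial-encoded and the 86 nuclear-encoded subunits, and the ratio of the summed counts (right), in each library. Points are libraries and black bars are means with SD (n = 3). In each plot the 3 si-GPD1L points lie below all 3 si-NC points, and si-NC replicate 1 is the highest, at 3.48%, 0.654% and 5.31.

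Among the 92 members tested, 87 had a log2 fold change below 0, against 7558 of the 14852 genes tested. The test called 12 members lower and none higher, while over all genes 6.36% were called, 2.33% as lower and 4.03% as higher. DESeq2's Wald test also called none higher (22 lower), and no member was higher at an unadjusted p under 0.05 by either tool. At an unadjusted p under 0.05 by edgeR 52 members were lower, where 22.4% of all genes passed in either direction. Groups did not overlap, with si-GPD1L lower, for 54 members (13.9% of all genes). No member lay wholly higher in si-GPD1L (15.1% of all genes). Only 1 called member, Cox6b2, also changed by over 1 on the log2 scale, where 1.62% of all genes were called with such a change. Without si-NC replicate 1, 24 members were called lower (4.41% of all genes) and 1 higher (5.67%), and 56 did not overlap with si-GPD1L lower (19.7%). The median log2 fold change over the 92 members was -0.22, and -0.14 without that library. Over all genes tested the median was -0.005. The 12 calls depended on the libraries in the fit. Leaving out si-NC replicate 3 lost none of them and leaving out si-NC replicate 1 lost Cox6b2 alone. Without si-NC replicate 2, Atp5j2, Cox6b2, Cox7b, Cox7c and Ndufb4 were lost. The calls that were still made were ATP8, ND4L and Uqcrh without si-GPD1L replicate 1, Uqcrh without si-GPD1L replicate 2, and ND4L and Uqcrh without si-GPD1L replicate 3.

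The median shift was larger for the mitochondrial than for the nuclear genome. Of the 13 mitochondrial-encoded members, all had log2 fold changes below 0 and 4 were called lower, with a median of -0.41. Of the 79 nuclear members tested, 74 were below 0 and 8 were called lower, with a median of -0.20. The medians fell closer together without si-NC replicate 1, at -0.18 for mitochondrial-encoded members, of which 7 were called lower, and -0.12 for nuclear members, of which 17 were called lower. No test of the difference between the genomes was made.

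**Figure D2:**
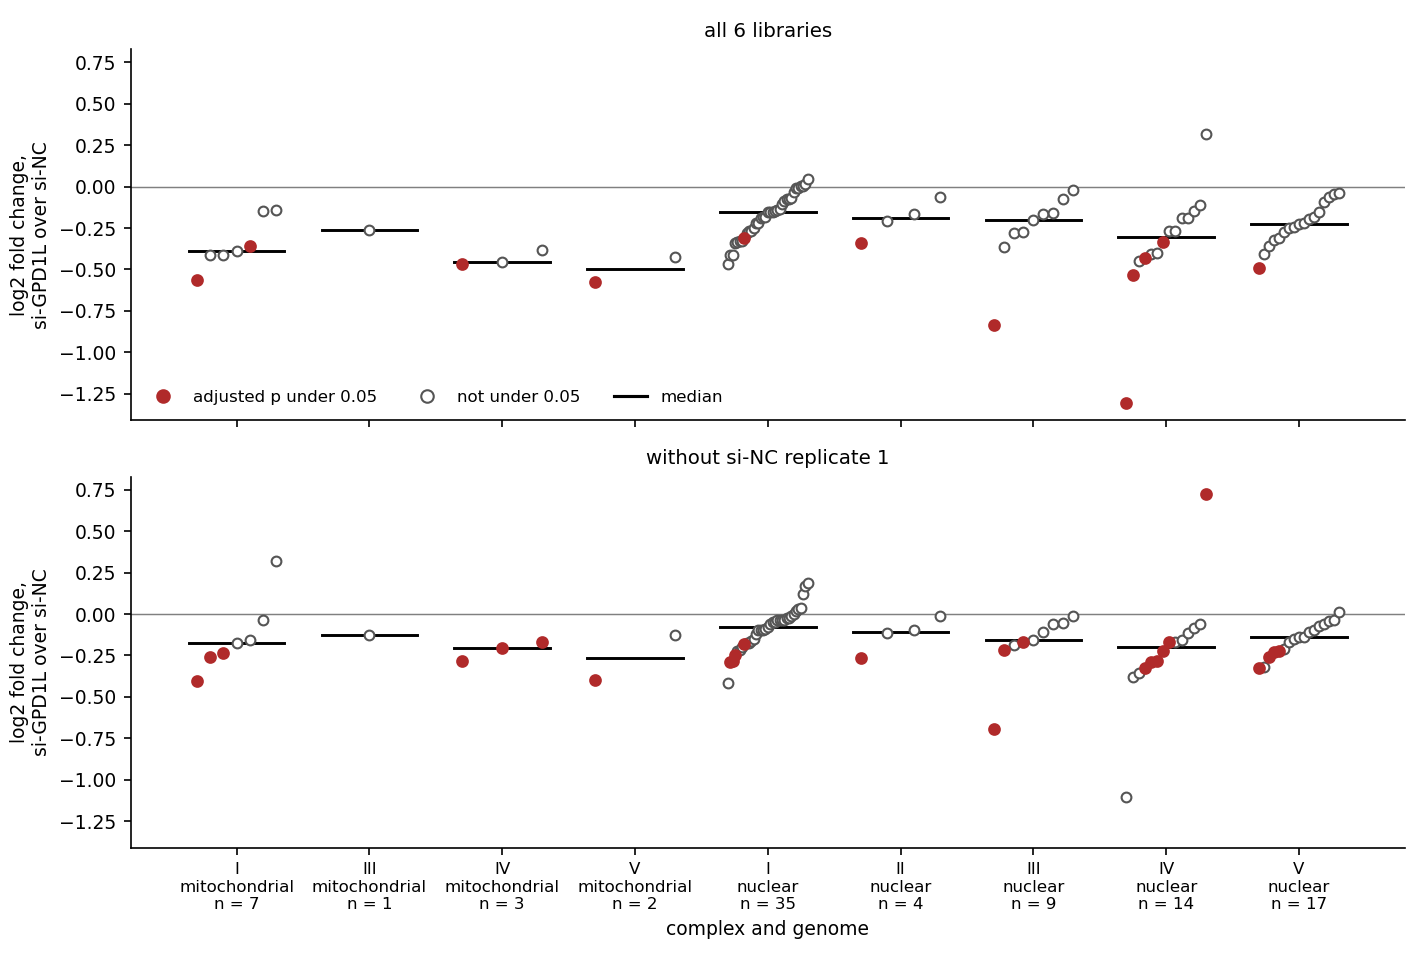
Log2 fold change of si-GPD1L over si-NC (vertical axis) for each of the 92 members tested, by complex and genome, with all 6 libraries (top) and without si-NC replicate 1 (bottom). Filled points had an adjusted p under 0.05 and lines are medians. Nearly all points lie below 0 in both plots, the mitochondrial medians move from between -0.26 and -0.50 to between -0.13 and -0.26, and Cox4i2 is the highest complex IV point in both.

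Of the mitochondrial-encoded members, ATP8, the small membrane subunit of the ATP synthase, had the largest difference. It lies on chromosome M at 7758-7961 of rn6, and its last 43 bases overlap ATP6. ATP8 had normalized counts of 1442, 990 and 1085 in si-NC and 854, 782 and 727 in si-GPD1L, with no overlap. It fell by 0.58 on the log2 scale (SE 0.12, adjusted p = 0.0158), and by 0.40 without si-NC replicate 1 (adjusted p = 0.00127). ATP6, the proton-channel subunit encoded by the same transcript, had 51328, 31292 and 29630 in si-NC and 28539, 28373 and 26803 in si-GPD1L. All its si-GPD1L libraries were below the controls, yet the call was not made (log2 fold change -0.42, SE 0.16, adjusted p = 0.15). Without si-NC replicate 1 its log2 fold change was -0.13 (adjusted p = 0.116).

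ND4L, a membrane subunit of complex I at 9870-10166 of chromosome M, was the second mitochondrial gene called. Its normalized counts were 2304, 1699 and 1721 in si-NC and 1381, 1184 and 1311 in si-GPD1L. It fell by 0.56 on the log2 scale (SE 0.11, adjusted p = 0.0105), and by 0.41 without si-NC replicate 1 (adjusted p = 0.00026). ND5, one of the large antiporter-like subunits of complex I, had 35260, 27272 and 30832 in si-NC and 24836, 24215 and 23812 in si-GPD1L. It fell by 0.36 (SE 0.094, adjusted p = 0.0432), and by 0.26 without si-NC replicate 1 (adjusted p = 0.00311). COX2, which carries the copper centre that takes electrons from cytochrome c, had 64063, 41976 and 49732 in si-NC and 37635, 36832 and 38432 in si-GPD1L. It fell by 0.46 (SE 0.13, adjusted p = 0.0475), and by 0.29 without si-NC replicate 1 (adjusted p = 0.00238). ATP8 and ND4L, the 2 largest mitochondrial differences, are also the shortest of the mitochondrial genes, at 204 and 297 bases.

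The other mitochondrial-encoded members were not called with all 6 libraries. COX1, the catalytic subunit of complex IV and the highest of all members at 14610 TPM on average, had 242090, 172668 and 172273 normalized counts in si-NC and 152803, 146354 and 150527 in si-GPD1L. Its log2 fold change was -0.38 (adjusted p = 0.0813). For COX3 and ND1 it was -0.45 (adjusted p = 0.117) and -0.39 (adjusted p = 0.0526). Without si-NC replicate 1, COX1 (-0.20, adjusted p = 0.000834), COX3 (-0.17, adjusted p = 0.02) and ND1 (-0.23, adjusted p = 0.00307) were called as well. ND2, ND3 and CYTB, the cytochrome b of complex III, had log2 fold changes of -0.41, -0.41 and -0.26 with groups that did not overlap, and none was called with or without that library (adjusted p from 0.0502 to 0.154). ND6, the one member on the opposite strand, overlapped between groups and had -0.15 (adjusted p = 0.43), and -0.03 without si-NC replicate 1.

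ND4 behaved unlike its neighbours. Its normalized counts were 2111, 305 and 1644 in si-NC and 1541, 1564 and 584 in si-GPD1L, so that each group held 1 low library and the groups overlapped. Its level averaged 122 TPM, the lowest of the mitochondrial-encoded members, beside 2934 TPM for ND2. The log2 fold change of ND4 was -0.14 (SE 0.49, adjusted p = 0.9) and turned to 0.32 without si-NC replicate 1 (adjusted p = 0.7). The row covers 10160-11537 of chromosome M and overlaps ND4L by 7 bases. How reads of overlapping genes were counted was not given in the sources used here.

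Among the mitochondrial messages, COX1 held 38.2, 39.6 and 38.7% of the counts on the 13 genes in si-NC and 38.9, 38.4 and 39.2% in si-GPD1L. ATP8 held 0.227 to 0.244% in the controls and 0.19 to 0.217% after si-GPD1L, and ND4L 0.364 to 0.389% and 0.311 to 0.351%. These were the 2 genes whose shares were lower in every si-GPD1L library. CYTB was the one whose share was higher in each, at 10.2, 11.4 and 11.4% in si-NC and 12.1, 11.9 and 11.7% in si-GPD1L. For the other 10 genes the shares overlapped between groups. The ratios of the mean shares without si-NC replicate 1 were 0.868 for ATP8, 0.863 for ND4L, 1.45 for ND4, 0.993 for COX1 and 1.05 for CYTB. These are shares of the counts on the 13 genes. The ratio of 0.877 given above for the 13 genes together is of their share of all library counts, a different measure.

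**Figure D3:**
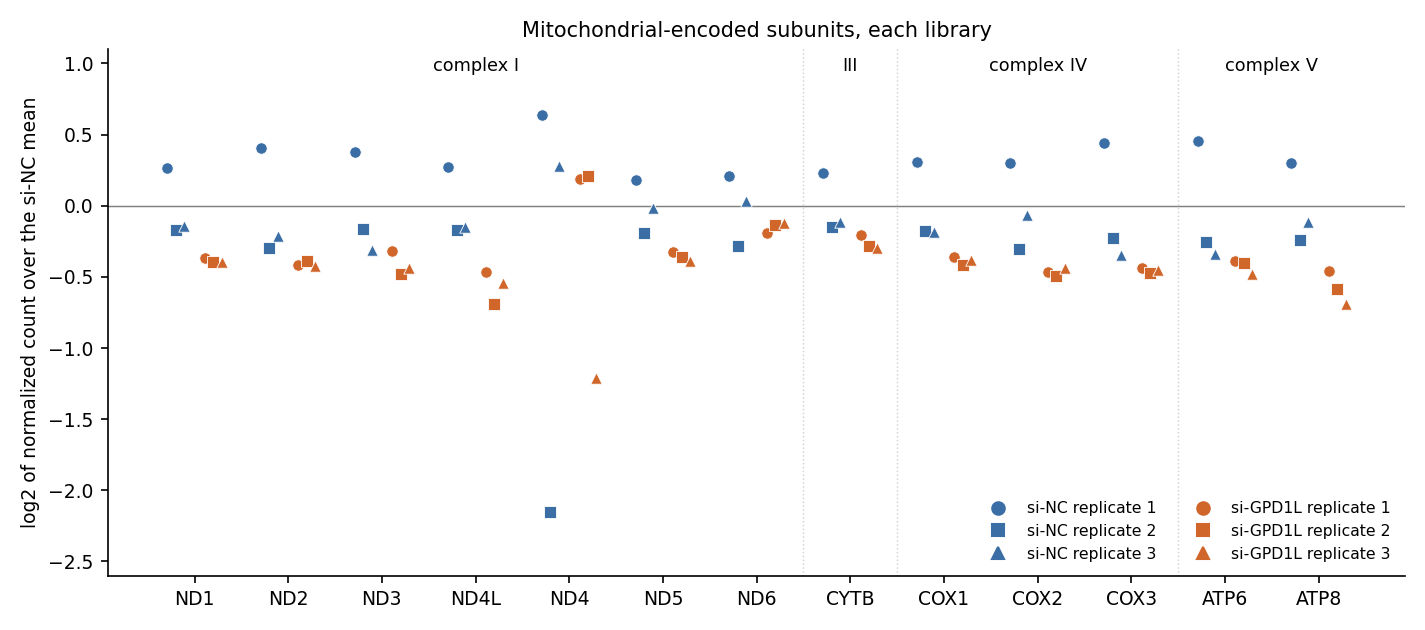
Normalized count of each mitochondrial-encoded member in each library as log2 of the ratio to its si-NC mean (vertical axis), grouped by complex. Points are libraries. The si-NC replicate 1 point is the highest for all 13 genes, the si-GPD1L points lie below the controls for 11, and ND4 has 1 low library in each group (305 and 584 normalized counts).

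Among nuclear members the one called under all 14 alternatives was Uqcrh, the hinge subunit of complex III, which helps cytochrome c1 hand electrons to cytochrome c (chromosome 5, 134919040-134927235 of rn6). Its normalized counts were 1065, 915 and 716 in si-NC and 549, 466 and 497 in si-GPD1L. Every si-GPD1L library was below every control. It fell by 0.84 on the log2 scale (SE 0.13, adjusted p = 0.00172), to 56.0% of the si-NC level, and by 0.70 without si-NC replicate 1 (adjusted p = 5.53e-05). It was called whichever single library was left out, with an adjusted p of at most 0.0197.

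With all 6 libraries the other nuclear genes of complex III did not pass the test. Cyc1 and Uqcrfs1, which hold the haem and the iron-sulphur cluster of the electron path, differed by -0.08 (adjusted p = 0.553) and -0.20 (adjusted p = 0.0979) on the log2 scale. Uqcrc1 and Uqcrc2, the core proteins, had -0.02 and -0.28 (adjusted p = 0.903 and 0.081). Both Uqcrfs1 (-0.21, adjusted p = 0.0208) and Uqcrc2 (-0.17, adjusted p = 0.0471) were called lower without si-NC replicate 1. The 4 catalytic and core genes summed to 748, 760 and 771 TPM in si-NC and 716, 741 and 731 in si-GPD1L, a ratio of 0.960. The 5 small subunits, Uqcrh among them, summed to 726, 674 and 595 TPM in si-NC and 551, 544 and 531 in si-GPD1L, a ratio of 0.815. In both sums the groups did not overlap, and without si-NC replicate 1 the ratios were 0.953 and 0.854. The small-subunit sums averaged 665 TPM in si-NC and 542 in si-GPD1L. Uqcrh alone averaged 207 and 124 TPM, so most of the difference in that sum was its own. Uqcrfs1 was the highest nuclear gene of the complex and Uqcrb the lowest, at averages of 208 and 35.5 TPM.

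Complex IV held 4 of the 8 nuclear calls. Cox7b (chromosome X, 77065427-77071676 of rn6), Cox7c (chromosome 2, 14699878-14701903) and Cox7a2l (chromosome 6, 6695807-6709790) code for small single-helix proteins around the catalytic core. Cox7b had normalized counts of 1208, 864 and 773 in si-NC and 676, 666 and 622 in si-GPD1L. It fell by 0.54 (SE 0.14, adjusted p = 0.0368), and by 0.32 without si-NC replicate 1 (adjusted p = 0.00822). Cox7c had 1446, 1148 and 1066 in si-NC and 955, 904 and 862 in si-GPD1L. It fell by 0.43 (SE 0.10, adjusted p = 0.0312), and by 0.29 without that library (adjusted p = 0.0086). In both genes si-NC replicate 1 was the highest library and the other controls still lay above all si-GPD1L libraries. Cox7a2l had 2856, 2554 and 2563 in si-NC and 2107, 2151 and 2063 in si-GPD1L, and fell by 0.34 (SE 0.071, adjusted p = 0.0148), and by 0.28 without si-NC replicate 1 (adjusted p = 0.00111).

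Cox6b2, the testis isoform of the subunit that caps complex IV on the intermembrane side (chromosome 1, 72661099-72662436 of rn6), had the largest log2 fold change of all members at a very low level. Its normalized counts were 35.6, 25.4 and 23.4 in si-NC and 14.2, 9.1 and 11.0 in si-GPD1L, about 4.38 TPM on average. It fell by 1.31 on the log2 scale (SE 0.34, adjusted p = 0.0402). Without si-NC replicate 1 the log2 fold change was -1.10 and the call was lost (adjusted p = 0.0989), with fewer libraries in the fit.

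The other isoform families of complex IV are pairs in which 1 gene serves most tissues and the other muscle, lung or testis. The common isoforms Cox4i1, Cox6a1, Cox7a2 and Cox8a differed by -0.27, -0.19, -0.41 and -0.19 on the log2 scale, with groups that did not overlap and adjusted p from 0.0804 to 0.179. They differed by -0.17, -0.12, -0.17 and -0.16 without si-NC replicate 1, and Cox4i1 was called (adjusted p = 0.0449). Cox4i1 was the highest nuclear gene of complex IV at 707 TPM. Cox6a2, the heart and skeletal muscle isoform, had 257, 248 and 184 normalized counts in si-NC and 174, 151 and 181 in si-GPD1L, and its log2 fold change of -0.45 was not called (adjusted p = 0.0886). Cox8b, also a muscle isoform, overlapped between groups at no more than 25.4 normalized counts (log2 fold change -0.27, adjusted p = 0.662).

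Cox4i2, the isoform of subunit 4 that is induced in low oxygen, was the member with the highest log2 fold change. Cox4i2 had normalized counts of 101, 49.8 and 51.8 in si-NC and 75.3, 96.4 and 79.9 in si-GPD1L. The groups overlapped through si-NC replicate 1 alone, and the log2 fold change was 0.31 (SE 0.26, adjusted p = 0.508). Without that library it was 0.73 and was called (adjusted p = 0.0323), the only member called higher in any alternative. 

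In complex V the call was Atp5j2, the f subunit of the membrane part (chromosome 12, 11191799-11198369 of rn6). Atp5j2 had normalized counts of 1369, 1051 and 952 in si-NC and 831, 802 and 768 in si-GPD1L, and it fell by 0.49 (SE 0.11, adjusted p = 0.0261). Without si-NC replicate 1 it fell by 0.32 (adjusted p = 0.00456). The neighbouring membrane subunits Atp5l (g) and Atp5i (e) had -0.41 (adjusted p = 0.052) and -0.28 (adjusted p = 0.19). Without si-NC replicate 1, Atp5l was called (-0.26, adjusted p = 0.027) and Atp5i was not (-0.32, adjusted p = 0.0842). Summed over these 3 genes, TPM was 997, 930 and 805 in si-NC and 761, 704 and 726 in si-GPD1L, a ratio of 0.802, or 0.842 without si-NC replicate 1.

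The alpha and beta subunits of the catalytic head of the ATP synthase had small differences. Atp5b, the beta subunit and the highest nuclear member at 1146 TPM, had 15512, 15560 and 15489 normalized counts in si-NC and 15337, 14832 and 15178 in si-GPD1L. The groups did not overlap, but the log2 fold change was -0.04 (SE 0.070, adjusted p = 0.797). Atp5a1, the alpha subunit, had 8585, 8620 and 8937 in si-NC and 8521, 8215 and 8589 in si-GPD1L, with a log2 fold change of -0.05 (adjusted p = 0.748). The 5 head and central-stalk genes summed to 2378 to 2476 TPM in the controls and 2364 to 2437 after si-GPD1L, and these sums overlapped. They were the F1 genes Atp5a1, Atp5b, Atp5c1, Atp5d and Atp5e, none called by edgeR or DESeq2. At an unadjusted p under 0.05, passed by 22.4% of all genes in edgeR, 3 of the 5 were lower in each tool. Atp5c1, Atp5d and Atp5e had log2 fold changes of -0.24, -0.19 and -0.32. The median of the 5 was -0.19, beside -0.20 for all nuclear members. Of the genes for the c-ring, which turns as protons pass, Atp5g1 had -0.09 (adjusted p = 0.599), Atp5g2 -0.31 (adjusted p = 0.0513) and Atp5g3 -0.25 (adjusted p = 0.0992). Atp5g2 was called without si-NC replicate 1 (-0.23, adjusted p = 0.0172). Atp5s, now named Dmac2l and placed here by symbol alone, was the lowest gene tested under complex V, at 6.26 TPM. Its log2 fold change was -0.06 (adjusted p = 0.866).

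Complex II gave 1 call among 4 genes. Sdhc, a membrane anchor of succinate dehydrogenase that binds ubiquinone (chromosome 13, 89498047-89518979 of rn6), had 2024, 1717 and 1742 normalized counts in si-NC and 1500, 1390 and 1436 in si-GPD1L. It fell by 0.34 (SE 0.079, adjusted p = 0.0249), and by 0.26 without si-NC replicate 1 (adjusted p = 0.00465). The other anchor, Sdhd, and the catalytic Sdha and Sdhb differed by -0.21, -0.17 and -0.06 on the log2 scale (adjusted p = 0.216, 0.214 and 0.668). By level Sdhc was the highest of the 4 at 172 TPM and Sdhd the lowest at 105 TPM.

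Complex I, the largest complex, gave 1 call among 35 nuclear genes tested, where 2.33% of all genes were called lower. Ndufb4, an accessory subunit of the membrane arm (chromosome 11, 65960277-65966899 of rn6), had 762, 730 and 723 in si-NC and 594, 641 and 554 in si-GPD1L. It fell by 0.31 (SE 0.083, adjusted p = 0.0469), and by 0.28 without si-NC replicate 1 (adjusted p = 0.024). The 7 nuclear core subunits, which carry the flavin and the iron-sulphur clusters, had a median log2 fold change of -0.14 and ranged from -0.19 (Ndufs3) to 0.02 (Ndufs7). None of these was called by edgeR or DESeq2, and 1 had an unadjusted p under 0.05 in edgeR. Without si-NC replicate 1, edgeR called 1 of the 7 lower. Their summed TPM was 753, 755 and 741 in si-NC and 742, 741 and 729 in si-GPD1L, so that the groups overlapped. The other 31 nuclear subunits, 28 of them tested, had a median of -0.20 and summed to 3492, 3118 and 3069 TPM in si-NC and 2979, 2972 and 2939 in si-GPD1L. Ndufa4 had -0.47 and missed the threshold (adjusted p = 0.0602), and was called without si-NC replicate 1 (-0.25, adjusted p = 0.0223). The highest and lowest nuclear genes of the complex by level were Ndufb8, at 221 TPM and a log2 fold change of -0.14 (adjusted p = 0.305), and Ndufa10l1, at 12.4 TPM and 0.04 (adjusted p = 0.921).

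**Figure D4:**
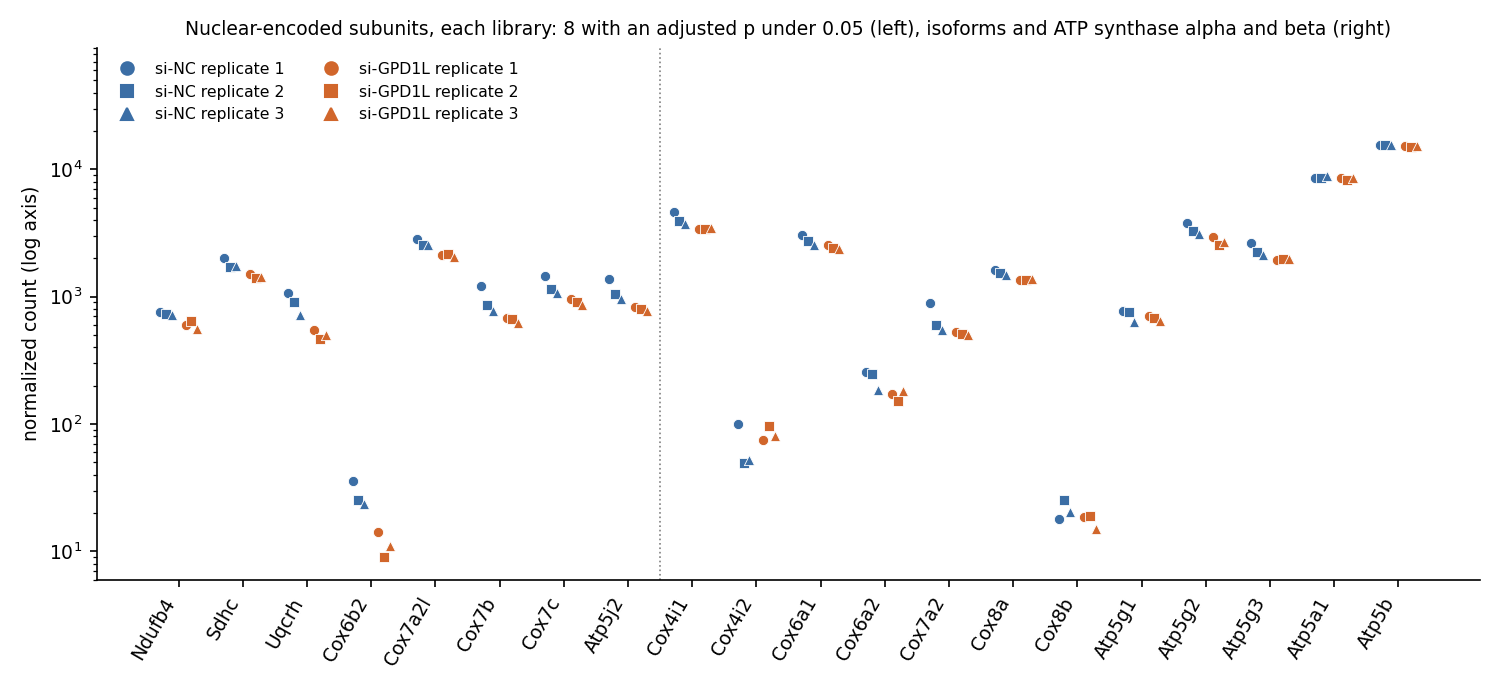
Normalized count (log axis) of 20 nuclear-encoded subunits in each library. The 8 on the left had an adjusted p under 0.05 and their groups do not overlap; on the right are isoforms of complex IV and the c-ring with the alpha and beta subunits of the ATP synthase. Points are libraries, with Cox6b2 the lowest at 9.1 to 35.6 and Atp5b the highest at 14832 to 15560 normalized counts.

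The 7 members not tested were Cox7a1, Cox7a2l2, Cox7b2, Cox8c, Ndufa1, Ndufa4l2 and Ndufs6. Cox7b2 and Cox8c had 0 counts in all 6 libraries, which allows up to 3 counts in each. The other 5 had between 0 and 10 counts a library, among them the muscle isoform Cox7a1 with 4 to 10. The Ndufs6 row has the identifier of a gene now named Ndufs6-ps1, and reads of Ndufs6 itself were not identified here. Small subunit genes have many processed copies in rodent genomes, and how reads that fit several copies were counted was not given.

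Shorter members had lower log2 fold changes, and so did other short genes. The 27 nuclear members tested under 600 bases had a median log2 fold change of -0.31, against -0.18 for 198 other protein-coding genes of that length. Of these members 6 were called lower, or 22.2%, against 10.6% of the other genes. Of the other genes of that length, 125 averaged 100 normalized counts or more over the libraries, and 16.0% of those were called lower, with a median of -0.22. Members of 600 to 1000 bases had a median of -0.19 (22 tested) against -0.12, and those of 1000 to 2000 bases -0.17 (24 tested, 2 called lower) against -0.05. The 6 members of at least 2000 bases had -0.15, against 0.02 for 9691 other genes. Under 600 bases the medians without si-NC replicate 1 were -0.22 for the members and -0.09 for the other genes. Across the 79 nuclear members the Spearman rho of log2 length and log2 fold change was 0.49, and across 13346 other protein-coding genes 0.20. These are descriptions across genes that share the same 6 libraries, and genes are not independent replicates. In si-NC replicate 1 the short genes were also high, by a median of 0.43 on the log2 scale for members under 600 bases and 0.32 for the other genes of that length. Protein-coding genes under 600 bases that were not members took 2.26, 1.89 and 1.73% of counts in si-NC and 1.70, 1.66 and 1.63% in si-GPD1L. Sets of subunits set beside each other above also differed in median length. In complex I it was 1088 bases for the nuclear core subunits and 633.5 for the other nuclear ones. In complex III it was 1381 for the catalytic and core genes and 818 for the small subunits. For the ATP synthase it was 1325 for the head and central stalk and 432 for the membrane subunits e, f and g. The part of gene length in the members' differences was not tested.

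**Figure D5:**
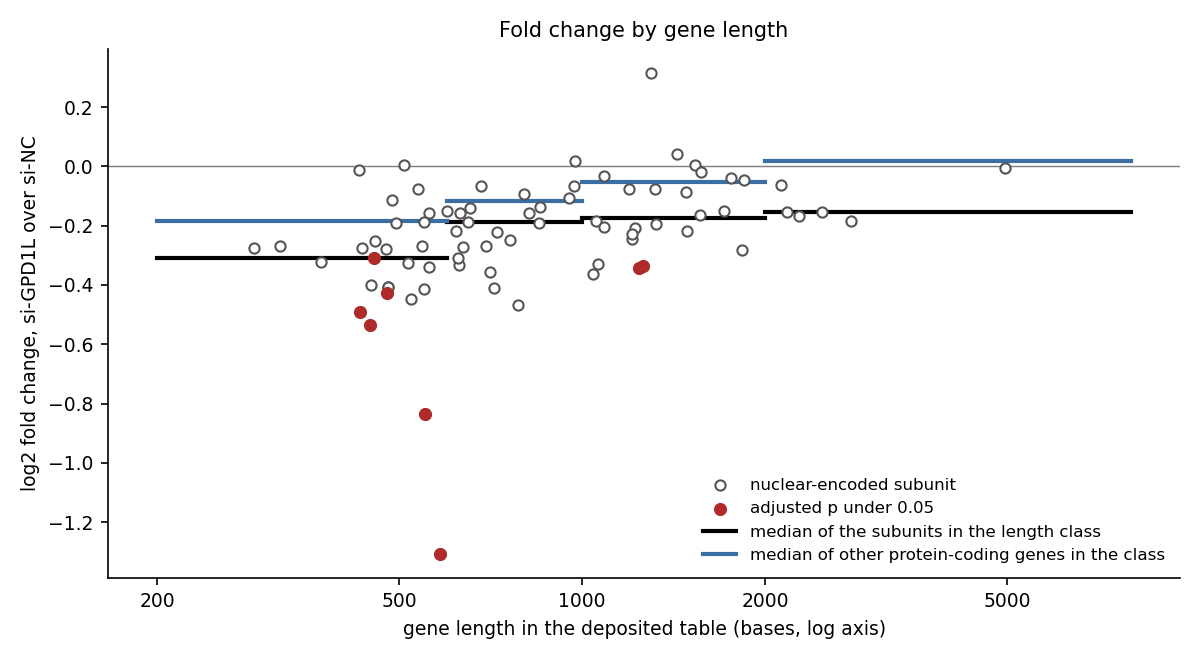
Log2 fold change of si-GPD1L over si-NC (vertical axis) against gene length in the deposited table (bases, log axis) for the 79 nuclear members tested. Lines are medians by length class, for the members (black) and for other protein-coding genes (blue), with the last class open-ended. The black line lies below the blue one in each class, from -0.31 against -0.18 under 600 bases to -0.15 against 0.02 from 2000 bases.

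RefSeq windows on GRCr8, from 250 bases before to 50 bases after the annotated start, were matched by gene identifier for 72 of the 86 nuclear members, 67 of them tested. GRCr8 is a later build than the rn6 of the counts, so the coordinates below are not those of the gene table. The 5 motifs were searched on both strands. The core GCGCATGC of nuclear respiratory factor NRF1 was found in 12.5% of members' windows, 4.99% of 10446 windows of other protein-coding genes tested and 2.66% of all 27457 windows. The ETS core CCGGAAG, read by GABP among others, was in 26.4%, 17.3% and 9.22%. The YY1 core AAGATGG was in 23.6%, 8.20% and 7.30%. In 3 of the 17 members with it, a match lay before the start, as in 455 of the 857 other genes with it. The letters TATAAA were in 8.33%, 6.78% and 14.3%. A motif of the type bound by ZNF143, ACTACA followed after 2 bases by TCCC, was added after the sequences were read and was in 9.72%, 4.15% and 1.85%. A match is only a run of letters in the window.

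The windows of the called members differed from each other. None of the 8 called members held the NRF1 core, 1 held the ETS core (Uqcrh), 3 the YY1 core and 2 the ZNF143-type motif (Cox7b and Cox7c). Tested members with and without the NRF1 core had median log2 fold changes of -0.29 (8 genes) and -0.22 (59 genes). With and without the ETS core both medians were -0.22. The 250 bases before the start are shown in the direction of transcription, motifs in capitals, for the called members with a motif there (Uqcrh, Cox7c and Cox7b), for Cox6b2 and, as an example with the NRF1 core, for Atp5g2.

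Uqcrh (GRCr8, chr5:134790883-134791132, minus strand; capitals mark the ETS core on the opposite strand): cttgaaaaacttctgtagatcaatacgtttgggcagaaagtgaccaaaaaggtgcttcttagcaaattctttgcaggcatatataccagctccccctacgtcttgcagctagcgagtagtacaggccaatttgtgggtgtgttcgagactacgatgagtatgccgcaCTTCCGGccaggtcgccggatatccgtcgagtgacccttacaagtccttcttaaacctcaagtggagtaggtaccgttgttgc
Cox7c (GRCr8, chr2:18579171-18579420, minus strand; capitals mark the ZNF143-type motif): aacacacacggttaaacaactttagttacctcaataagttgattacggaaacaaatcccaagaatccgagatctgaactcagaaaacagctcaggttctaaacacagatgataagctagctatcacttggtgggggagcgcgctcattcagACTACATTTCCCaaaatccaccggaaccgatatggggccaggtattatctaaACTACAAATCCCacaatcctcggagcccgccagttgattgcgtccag
Cox7b (GRCr8, chrX:75148786-75149035, plus strand; capitals mark the ZNF143-type motif): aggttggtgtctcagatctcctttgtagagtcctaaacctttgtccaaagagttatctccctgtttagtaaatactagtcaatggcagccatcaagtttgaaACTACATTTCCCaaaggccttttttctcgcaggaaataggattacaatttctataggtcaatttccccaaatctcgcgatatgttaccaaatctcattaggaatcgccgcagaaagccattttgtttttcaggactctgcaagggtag
Cox6b2 (GRCr8, chr1:78122621-78122870, plus strand; none of the motifs): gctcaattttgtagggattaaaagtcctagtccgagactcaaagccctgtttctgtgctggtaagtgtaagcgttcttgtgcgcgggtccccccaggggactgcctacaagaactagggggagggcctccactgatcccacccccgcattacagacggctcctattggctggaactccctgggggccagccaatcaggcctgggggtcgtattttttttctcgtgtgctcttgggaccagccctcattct
Atp5g2, now Atp5mc2 (GRCr8, chr7:135678219-135678468, minus strand; capitals mark overlapping NRF1 cores on both strands): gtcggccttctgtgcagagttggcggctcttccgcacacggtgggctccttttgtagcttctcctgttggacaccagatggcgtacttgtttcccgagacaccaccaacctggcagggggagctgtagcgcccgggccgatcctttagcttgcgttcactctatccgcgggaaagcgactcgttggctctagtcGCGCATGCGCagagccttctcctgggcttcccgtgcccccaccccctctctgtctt

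Cox7c held the ZNF143-type motif at 2 places, beginning 99 and 47 bases before the start, and Cox7b at 1 place, 148 bases before it. In Uqcrh the ETS core began 83 bases before the start.

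Medians of the other genes of the pathway lay nearer to 0 than that of the subunits, but the lists were not matched to the members for length. Median lengths ran from 1081 bases (mitochondrial ribosomal proteins) to 5537.5 (regulators of mitochondrial biogenesis) over the lists, against 743 for the members. Counts of calls in these lists stand beside 2.33% of all genes called lower and 4.03% called higher. Of 50 assembly factors listed 45 were tested and 1 was called lower, with a median log2 fold change of -0.08, and -0.05 without si-NC replicate 1. The call was Pet100, a chaperone of complex IV (log2 fold change -0.53, adjusted p = 0.019). Of 76 mitochondrial ribosomal proteins 73 were tested and 3 were called lower, namely Mrpl34, Mrpl33 and Mrps33 (-0.49, -0.45 and -0.47, adjusted p = 0.0316, 0.0413 and 0.0469), with a median of -0.10. That median was -0.02 without si-NC replicate 1, with 3 called lower and 1 higher, and Mrps33 was no longer called (-0.36, adjusted p = 0.0651). Among 30 genes of mitochondrial genome maintenance and RNA, 29 were tested, 1 was called and it was higher, and 2 were called higher without si-NC replicate 1. This was Pnpt1, the polynucleotide phosphorylase that degrades mitochondrial RNA, with normalized counts of 632, 491 and 534 in si-NC and 821, 1000 and 1005 in si-GPD1L (log2 fold change 0.77, SE 0.11, adjusted p = 0.000919).

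None of 16 regulators of mitochondrial biogenesis tested was called by edgeR or DESeq2. At an unadjusted p under 0.05, passed by 22.4% of all genes in edgeR, 1 of the 16 was lower in each tool. Their median was -0.08, and Nrf1, Gabpa and Tfam had log2 fold changes of -0.02, -0.13 and -0.02. Of the 18 genes of the citric acid cycle and pyruvate dehydrogenase, none was called by edgeR and 1 by DESeq2, with 3 lower at an unadjusted p under 0.05 in each tool, and the median was -0.08. In edgeR 1 of them was called lower without si-NC replicate 1, with a median of -0.05. Of 23 electron carriers and other enzymes that feed the quinone pool, 18 were tested and 2 were called lower, with a median of -0.15. The called genes were Prodh1, proline dehydrogenase, and Coq10a, a quinone-binding protein (-0.89 and -0.37, adjusted p = 0.037 and 0.0436). With si-NC replicate 1 left out, 3 were called lower and the median was -0.04. Cycs, the somatic cytochrome c, had -0.37 and was not called (adjusted p = 0.109).

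Markers of other cells were read beside these values, because bulk RNA cannot tell fewer cells of a type from less RNA per cell. Fibroblast markers were high, with summed TPM of 34020 to 43880 in the controls and 41250 to 44420 after si-GPD1L, lowest in si-NC replicate 1. Of 12 fibroblast markers 3 were called lower, namely Fap, Lum and Dcn, and none higher. For 2 of the 12 every si-GPD1L library lay above every control, and the highest log2 fold change was 0.25, for Col1a1. Without si-NC replicate 1, 4 of the 12 were called lower and 2 higher. Cardiomyocyte markers were also present, at 3257 to 3449 TPM in the controls and 3061 to 3248 after si-GPD1L, groups that did not overlap. None of the 14 was called by edgeR or DESeq2. At an unadjusted p under 0.05, passed by 22.4% of all genes in edgeR, edgeR had 4 lower and 2 higher and DESeq2 4 lower. The median log2 fold change of the 14 was -0.09, and -0.02 without si-NC replicate 1. Endothelial markers were low in both groups, at 40.5 to 51.9 TPM in the controls and 65.8 to 71.6 after si-GPD1L, with 4 of the 11 tested called higher. Macrophage markers overlapped at 216 to 311 TPM with none of 12 called by edgeR or DESeq2 (1 higher at an unadjusted p under 0.05), and smooth muscle and pericyte markers overlapped at 1202 to 1559 TPM with 1 of 10 called in each direction, and 5 lower and 1 higher without si-NC replicate 1. The part of the cell types in the members' differences was not tested.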

How the data were processed

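The authors aligned the reads to rn6 with HISAT2 2.1.0 and counted them per gene with HTSeq 0.12.4, according to the submitters' processing notes. The deposited table holds raw counts, TPM and a length for 40154 genes in each of the 6 libraries. The deposited TPM were used only for levels between genes. Tables of the authors' own comparisons were not used. Genes were filtered with filterByExpr and tested on the counts with edgeR 4.0.16 (quasi-likelihood test, TMM, no covariate, Benjamini-Hochberg adjustment, threshold 0.05) in R 4.3.3, which was tested on simulated data. A standard error is the log2 fold change divided by the square root of F. Alternatives used DESeq2 1.42.0, the edgeR exact test, other normalizations and filters, and each library left out. The members and the gene lists were chosen with earlier results of these data known. Named were all mitochondrial-encoded members, called nuclear members, isoform families, the highest and lowest member by TPM in each complex, and at most 3 called genes of each other list. Other genes were named after their values were seen. Intervals for a count of 0 cover counting error only.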

Additional observations from a re-analysis of the deposited data

How the results depend on the processing

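With si-NC and si-GPD1L compared over 14852 genes, 945 were called, and the count was 1528 with the edgeR exact test, 1929 with no filter beyond 1 count, 240 with a log2 fold change over 1 as well, and 361 to 1531 with 1 library left out. Mitochondrial-encoded members called lower numbered 4, and 7 with DESeq2's Wald test, 2 with at least 10 counts in every library, 11 with no filter, 0 with the fold threshold, and 0 (without si-GPD1L replicate 2) to 10 (without si-NC replicate 3) with a library left out. Nuclear members called lower numbered 8, and 15 with DESeq2's Wald test, 16 with the exact test, 27 with no filter, 1 with the fold threshold, and 1 (without any single si-GPD1L library) to 28 (without si-NC replicate 3) with a library left out. The only call higher was the 1 nuclear member, Cox4i2, without si-NC replicate 1 (0 to 1 over the libraries left out). The cause of these moves was not tested. Of the 12 members called lower, 11 were called without si-NC replicate 1 and 7 without si-NC replicate 2, and 3, 1 and 2 without si-GPD1L replicates 1, 2 and 3. Uqcrh was called in each of these fits.

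No pairing by replicate number was seen, as deviations of same-numbered libraries had correlations of -0.01, -0.01 and 0.04. With 3 libraries a group these values cannot exclude paired cultures. With a replicate block 921 genes, 6 mitochondrial-encoded and 12 nuclear members were called, 11 of them among the 12 called without it, and Ndufb4 was lost (adjusted p = 0.0511). Signs turned under at least 1 alternative for 12 of the 92 members tested, none of them called with all 6 libraries. They were 9 further nuclear subunits of complex I and the following 3. ND4 (-0.14) was 0.015 with the replicate block and ranged from -0.61 to 0.32 with 1 library left out, turning without si-GPD1L replicate 3 (0.19), si-NC replicate 1 and si-NC replicate 3 (0.020). Atp5s (-0.06) ranged from -0.20 to 0.012, turning without si-NC replicate 1, and Ndufa10l1 (0.04) from -0.083 to 0.21, turning without si-GPD1L replicate 1 or 3 and si-NC replicate 2. The sums over each genome were taken only with all libraries and without si-NC replicate 1, and both were lower in si-GPD1L each time. The other tests, filters and normalizations do not enter these sums. In the fit used for the main results, the smallest difference called among members was -0.31, for Ndufb4. With no filter beyond 1 count smaller differences were called, among them Atp5g3 (-0.25, adjusted p = 0.0387).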
